A study of Mus musculus with 58 samples.

Results

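The kinase genes described here are Ikbkb, Chuk, Ikbkg, Ikbke and Tbk1, which encode the IκB kinase (IKK) complex and its relatives IKKε and TBK1. They were found by matching these 5 gene symbols to the Ensembl identifiers of the count tables, and all 5 were present among the 47643 genes counted in each of 34 microglia libraries. The libraries were made by QuantSeq 3′ mRNA-Seq, which reads a tag near the 3′ end of each transcript, so a count does not grow with transcript length and levels in CPM (counts per 1000000 counts of the library, after TMM scaling) can be set side by side between genes.

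The libraries formed 8 groups and 4 comparisons. Wild-type primary microglia, shaken off mixed glial cultures of newborn pups, were given 2 μg/ml full-length wild-type tau fibrils for 24 h (4 cultures) or vehicle (4 cultures). Microglia of PS19 mice, which carry a transgene of human P301S mutant tau, and of non-transgenic NTG mice were isolated with CD11b beads (4 mice each). All 4 PS19 mice and 2 NTG mice were 10.98 months old, and the other 2 NTG mice were 11.18 months old. IkbkbCA cultures (5) were Cx3cr1 CreERT2/+; IkbkbCA F/F, in which tamoxifen-activated Cre releases a constitutively active IKKβ from the Rosa locus, and their IkbkbWT controls (5) were Cx3cr1+/+; IkbkbCA F/F. Ikbkb-/- cultures (4) were Cx3cr1 CreERT2/+; Ikbkb F/F, in which Cre removes a floxed part of Ikbkb, and their Ikbkb+/+ controls (4) were Cx3cr1+/+; Ikbkb F/F. All 4 genotype groups, controls included, received 4-hydroxytamoxifen in mixed glial culture. Cre sits in the Cx3cr1 gene, so both altered genotypes also had only 1 intact copy of Cx3cr1, a microglial chemokine receptor gene, and neither control group carried Cre. The labels do not say that the cultures of a group were set up separately, so p-values measure the spread between these libraries, which may be technical.

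Total counts ran from 1672052 to 8349128 per library. All 10 microglia markers were detected in every group, and their summed level was 5090 to 6650 CPM in vehicle and 12000 to 14000 CPM in tau fibril libraries. Some libraries went against the male sex that the methods give for the mice sequenced. IkbkbWT cultures 4 and 5 held 1.1 and 1.98 CPM of the Y-linked gene Ddx3y against 141 to 172 CPM in IkbkbWT cultures 1 to 3, and 451 and 470 CPM of Xist, the RNA that silences an X chromosome. All IkbkbCA, Ikbkb+/+, vehicle and tau fibril cultures held both RNAs. IkbkbCA cultures had 48.9 to 84.1 CPM of Ddx3y and 146 to 275 CPM of Xist. IkbkbWT cultures 1 to 3 had 2.75, 1.8 and 1.67 CPM of Xist. Setting IkbkbCA against IkbkbWT cultures 1 to 3 alone therefore does not balance sex makeup. Ikbkb-/- cultures had 154 to 172 CPM of Ddx3y against 35.0 to 68.2 CPM in Ikbkb+/+, so genotype and sex makeup cannot be told apart in that comparison. Those ranges do not overlap. Values with Ddx3y as a covariate there rest on Ddx3y levels that the groups do not share, and cannot separate genotype from sex makeup. PS19 mouse 1 had 175 CPM of Xist beside 121 CPM of Ddx3y.

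The IKK complex is the gate of the NF-κB pathway. Its kinases IKKβ and IKKα, held together by the scaffold NEMO, phosphorylate IκB proteins, which are then destroyed and free NF-κB dimers to enter the nucleus. IKKε and TBK1 are related kinases that act after nucleic acid sensors and Toll-like receptors and phosphorylate the interferon regulatory factors IRF3 and IRF7. In microglia, the macrophages of the brain, both arms are known for switching on cytokine, chemokine and interferon genes.

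On GRCm38, Ikbkb (IKKβ, ENSMUSG00000031537) lies on the minus strand of chromosome 8 at 22659212 to 22706589, Chuk (IKKα, ENSMUSG00000025199) on the minus strand of chromosome 19 at 44073335 to 44107480, and Ikbkg (NEMO, ENSMUSG00000004221) on the plus strand of chromosome X at 74393290 to 74453854. Ikbke (IKKε, ENSMUSG00000042349) lies on the minus strand of chromosome 1 at 131254343 to 131279606, and Tbk1 (ENSMUSG00000020115) on the minus strand of chromosome 10 at 121546455 to 121586787. Ikbkg overlaps G6pdx on the opposite strand over 418 exonic bases, and whether strand was used in counting is not stated, so reads there cannot be assigned with certainty. G6pdx differed little between groups, with log2 fold changes of -0.10 to 0.13 in the 4 comparisons. The genes annotated opposite Ikbkb and Ikbke held at most 1 count over all libraries.

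The promoter windows of Ikbke and Tbk1 are shown because both kinase genes rose with tau fibrils while their levels differed 45.4-fold and 1.81-fold between the highest and lowest group mean. RefSeq windows (GRCm38.p6, from 250 bases before to 50 bases after the start) were found for 4 of the 5 genes. The windows are chr1:131279514-131279813 for Ikbke and chr10:121586745-121587044 for Tbk1, both on the minus strand and written 5′ to 3′, and capitals mark matches to the AP-1 motif TGANTCA.
Ikbke: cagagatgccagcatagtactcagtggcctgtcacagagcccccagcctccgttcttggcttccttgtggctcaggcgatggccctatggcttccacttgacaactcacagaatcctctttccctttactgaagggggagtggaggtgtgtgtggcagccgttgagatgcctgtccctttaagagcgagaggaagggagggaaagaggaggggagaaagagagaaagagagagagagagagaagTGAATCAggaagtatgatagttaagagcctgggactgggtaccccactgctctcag
Tbk1: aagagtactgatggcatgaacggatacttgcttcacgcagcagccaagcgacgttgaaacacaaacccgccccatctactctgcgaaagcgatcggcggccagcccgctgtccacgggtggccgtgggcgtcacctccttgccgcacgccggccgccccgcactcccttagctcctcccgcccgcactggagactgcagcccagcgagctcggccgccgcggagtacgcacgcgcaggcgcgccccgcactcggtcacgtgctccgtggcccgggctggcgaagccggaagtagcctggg

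The Ikbke window held 4 CpG dinucleotides and 54.0% G and C, and the Tbk1 window held 37 CpG and 69.0% G and C. The median over 32851 promoter windows of the same length was 7 CpG. The match in Ikbke began 6 bases before the start, and 7.81% of all windows held that motif on either strand. Neither window held the interferon response core (GAAA, any 2 bases, GAAA, in 3.44% of all windows) or the κB consensus (8.46%) on either strand, which says only that these letters are not in these stretches.

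Across the 34 libraries, Ikbkb was the most abundant of the 5 genes in 24 libraries and Ikbke the least abundant in 26. Ikbkg varied least, with group means from 24.7 CPM in Ikbkb+/+ to 33.4 CPM in NTG, and the ranges of all neighbouring groups in its order overlapped. The same held for Chuk (24.5 CPM in vehicle to 58.1 CPM in NTG) and Tbk1 (14.3 CPM in vehicle to 25.9 CPM in IkbkbCA). Ikbkb ran from 22.4 CPM in Ikbkb-/- to 83.3 CPM in PS19, and only Ikbkb-/- was separate from its neighbour in that order. Ikbke ranged most widely. From high to low, its group means were 63.6 CPM in IkbkbCA, 28.9 in tau fibrils, 18.1 in IkbkbWT, 13.8 in Ikbkb+/+, 12.6 in Ikbkb-/-, 5.67 in vehicle, 3.27 in PS19 and 1.40 in NTG. Only IkbkbCA and tau fibrils, and Ikbkb-/- and vehicle, did not overlap as neighbours. Levels of different experiments also differ by culture and isolation, so this order is a description.

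**Figure D1:**
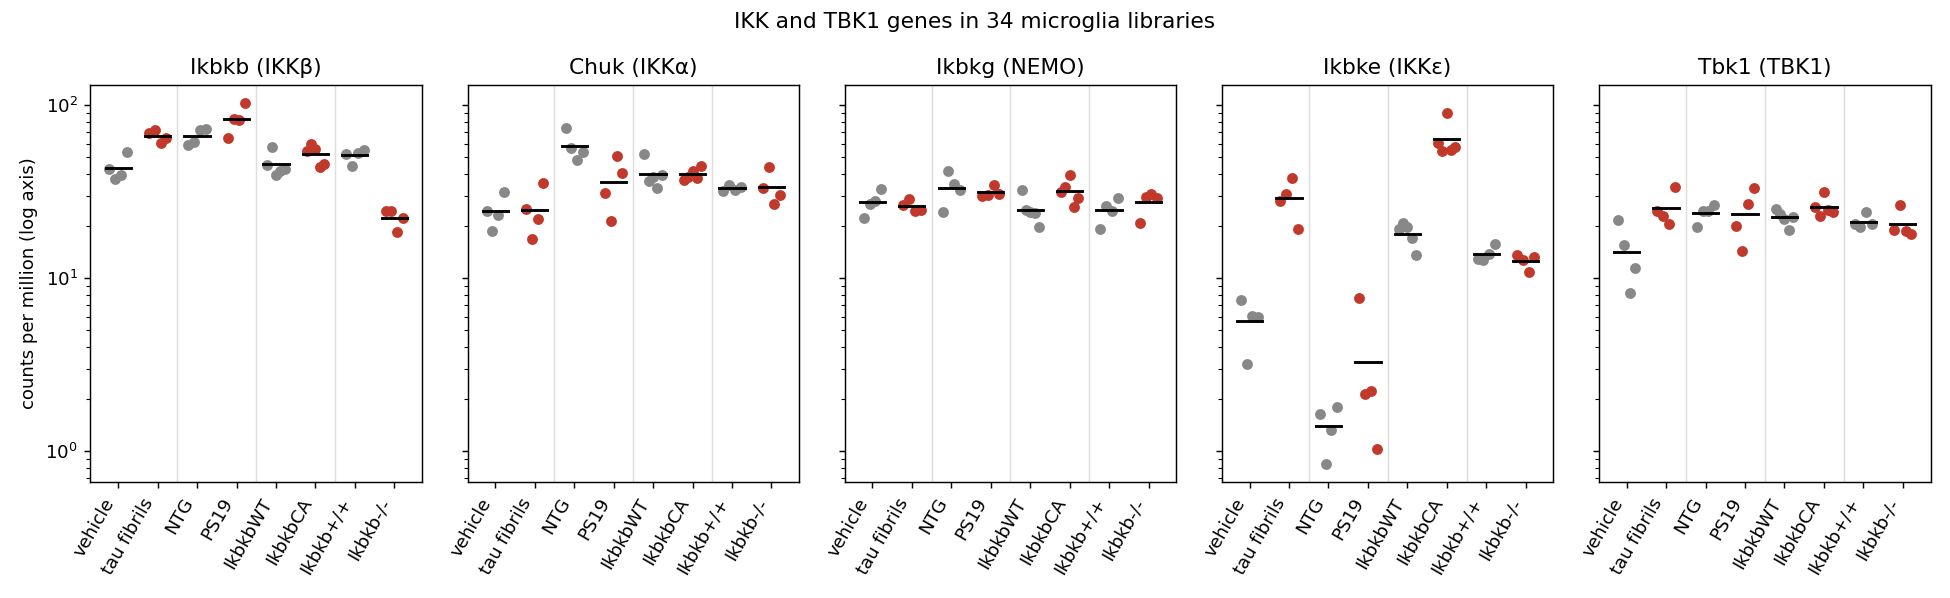
Level of each kinase gene in CPM (log axis) in 34 libraries of 8 groups, with grey points for control libraries, red points for treated or altered ones and black bars for group means. Ikbke spans 0.839 to 90.5 CPM, whereas Ikbkg stays between 19.4 and 41.9 CPM.

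In the 4 comparisons, 5 changes of the kinase genes passed the test, namely Ikbke, Tbk1 and Ikbkb with tau fibrils, Ikbke in IkbkbCA and Ikbkb in Ikbkb-/-. With tau fibrils, 3 of 5 members were called at a false discovery rate (FDR) under 0.05 by the edgeR quasi-likelihood test, all higher, beside 29.9% of all 10408 genes tested in either direction. In IkbkbCA 1 of 5 was called beside 14.5% of 11697 genes, and in Ikbkb-/- 1 of 5 beside 14.6% of 11242 genes. The call in Ikbkb-/- was of Ikbkb, the gene altered there by design. In PS19 none of the 4 members tested was called, beside 0.0707% of 11323 genes. There 1 of the 4, Chuk, had an unadjusted p under 0.05, and DESeq2 and limma-voom called none either. With age as a covariate no member had an unadjusted p under 0.05. Only NTG mice 1 and 2 differed in age, so that fit in effect sets PS19 against NTG mice 3 and 4 alone. The libraries of the 2 groups did not overlap for 2 of 5 members with tau fibrils (28.4% of all genes) and 1 of 5 in IkbkbCA (12.3%). The same held for 1 of 5 in Ikbkb-/- (17.9%), again Ikbkb, and 0 of 5 in PS19 (5.9%).

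**Figure D2:**
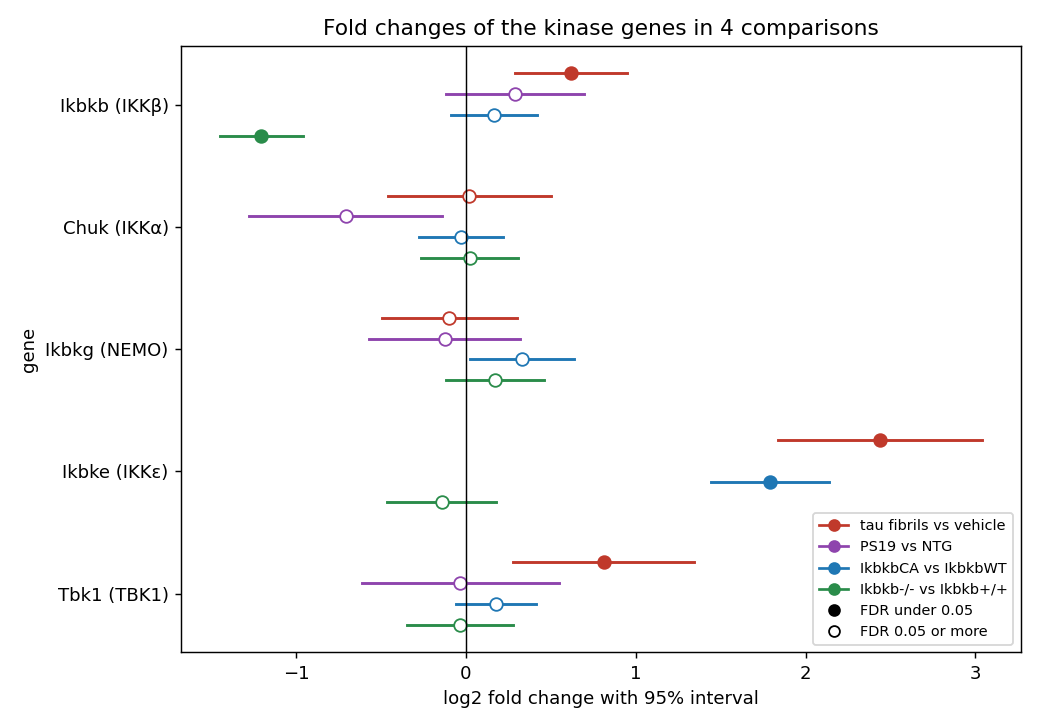
Log2 fold change (points) and 95% interval (lines) of each kinase gene in the 4 comparisons, with filled points for an FDR under 0.05. Ikbke lies at 2.44 with tau fibrils and 1.79 in IkbkbCA, and Ikbkb at -1.20 in Ikbkb-/-, with no point for Ikbke in PS19 because its counts were below the filter.

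Ikbkb, the gene of the catalytic subunit IKKβ, is altered in Ikbkb-/-, whereas IkbkbCA adds an active IKKβ from the Rosa locus. In the 4 Ikbkb-/- cultures Ikbkb measured 24.6, 24.4, 18.4 and 22.2 CPM, and in the 4 Ikbkb+/+ cultures 52.4, 44.7, 53.0 and 55.1 CPM. Every Ikbkb-/- culture was below every control, and the mean was 43.7% of the control mean. The log2 fold change was -1.20 (SE 0.12, FDR 6.3e-07 by the edgeR quasi-likelihood test). The 3′ tags may lie outside the floxed part, which the methods do not place, so the remaining counts do not measure how many cells had lost the gene. Cx3cr1 also fell, as did Xist, with log2 fold changes of -1.16 and -5.25. With the Ddx3y level as a covariate the Ikbkb value was -1.06 (SE 0.33, FDR 0.097), from a fit that cannot separate genotype from sex makeup.

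The active IKKβ of the Rosa locus was not seen as a higher Ikbkb count. Ikbkb measured 54.8, 59.6, 55.9, 44.1 and 45.9 CPM in the IkbkbCA cultures and 45.4, 57.7, 39.8, 41.9 and 43.0 CPM in the IkbkbWT cultures. The ranges overlapped, and the log2 fold change was 0.17 (95% interval -0.09 to 0.42, FDR 0.405). Where the 3′ end of the transgene lies is not given in the sources used here, so this count need not read it. The paper reports raised Ikbkb mRNA by RT-qPCR in IkbkbCA primary microglia. Cx3cr1 fell in IkbkbCA (log2 fold change -0.56, FDR 0.0015 by the edgeR quasi-likelihood test), from 1450 to 1960 CPM in IkbkbWT to 1110 to 1300 CPM. The effects of the 2 genotypes on Ikbkb differed by 1.38 (SE 0.17, FDR 8.0e-05).

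Tau fibrils raised Ikbkb itself. It measured 69.5, 72.4, 60.5 and 64.4 CPM with fibrils and 42.7, 37.5, 39.3 and 53.4 CPM with vehicle. All 4 fibril cultures lay above all 4 vehicle cultures, and the change was 1.53-fold (log2 0.62, SE 0.16, FDR 0.0044). In bulk libraries, more cells of a type and more RNA per cell cannot be told apart. Beside this change the 5 astrocyte markers, summed, stood at 572 to 619 CPM in vehicle and 300 to 369 CPM with fibrils, and the microglia markers moved as given above, and their part in the result was not tested. In PS19 microglia Ikbkb measured 64.5, 83.4, 82.2 and 103 CPM, and in NTG 59.2, 61.2, 72.4 and 73.3 CPM. Mice 2 to 4 were above all NTG mice and mouse 1 was not, and the log2 fold change of 0.29 (95% interval -0.12 to 0.69) did not pass the test (FDR 0.697). It was 0.168 without PS19 mouse 4 and 0.164 with age as a covariate. The 5 granulocyte markers, summed, stood at 409 to 2610 CPM in PS19 and 1580 to 2210 CPM in NTG. The astrocyte markers stood at 846 to 2020 CPM in PS19 and 665 to 1030 CPM in NTG. The part of such cells in the PS19 values of any member was not tested.

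Chuk, which encodes IKKα, the kinase that also drives the non-canonical NF-κB route, was called in none of the 4 comparisons by edgeR, DESeq2 or limma-voom. With tau fibrils it measured 25.0, 16.8, 22.1 and 35.7 CPM, and with vehicle 24.5, 18.6, 23.3 and 31.5 CPM. The ranges overlapped, with 1 fibril culture above and 1 below all vehicle cultures, and the log2 fold change was 0.02 (95% interval -0.46 to 0.50). The corresponding values were -0.03 (-0.28 to 0.22) in IkbkbCA and 0.02 (-0.26 to 0.31) in Ikbkb-/-. Scaling by total counts only turned the sign of the fibril and Ikbkb-/- values (-0.14 and -0.0065), along with a shift of the median of all genes to -0.164 and -0.031. In PS19 microglia Chuk stood at 31.2, 21.4, 50.8 and 40.8 CPM against 74.0, 57.0, 48.0 and 53.5 CPM in NTG. PS19 mice 1, 2 and 4 were below every NTG mouse. The log2 fold change of -0.71 (95% interval -1.28 to -0.14) had an unadjusted p of 0.018 and an FDR of 0.468 by the edgeR quasi-likelihood test. With age as a covariate it was -0.51 (unadjusted p = 0.139). Adjusting for reads outside genes moved it the other way, to -0.93 (unadjusted p = 0.0037, FDR 0.217). A fit of all 34 libraries gave -0.67 (unadjusted p = 0.0027, FDR 0.070). These fits used the same test, and none called Chuk.

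Ikbkg encodes NEMO, the regulatory subunit without kinase activity that ties the complex to ubiquitin chains. Its 95% intervals included 0 with tau fibrils (-0.50 to 0.30), in PS19 (-0.57 to 0.32) and in Ikbkb-/- (-0.12 to 0.46). In IkbkbCA it measured 31.7, 33.6, 39.5, 25.9 and 28.9 CPM against 32.6, 24.7, 24.2, 23.8 and 19.7 CPM in IkbkbWT. Cultures 2 and 3 lay above all controls, and the rest overlapped with IkbkbWT culture 1. The log2 fold change was 0.33 (SE 0.14), with an unadjusted p of 0.036 and an FDR of 0.147 by the edgeR quasi-likelihood test. Against IkbkbWT cultures 1 to 3 alone it was 0.22 (FDR 0.444). Ikbkg is X-linked, and the differing sex makeup of IkbkbWT and IkbkbCA cultures is given above.

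Ikbke, the gene of the inducible kinase IKKε, changed most of the 5 with tau fibrils and in IkbkbCA. It measured 27.8, 30.6, 38.0 and 19.3 CPM with fibrils against 7.46, 3.17, 6.04 and 5.99 CPM with vehicle. The groups did not overlap, and the lowest fibril culture was culture 4. The change was 5.42-fold (log2 2.44, SE 0.29, FDR 2.4e-07 by the edgeR quasi-likelihood test) and lay between 2.14 and 2.61 when each library was left out in turn. The counts behind it were 39 to 103 per fibril library and 12 to 17 per vehicle library.

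In IkbkbCA, Ikbke stood at 60.3, 54.6, 90.5, 55.0 and 57.6 CPM, and in IkbkbWT at 19.3, 20.9, 19.9, 17.02 and 13.6 CPM. Culture 3 was far above the other IkbkbCA cultures, and all 5 were above every control. The change was 3.46-fold (log2 1.79, SE 0.16, FDR 2.6e-05). It was 1.66 on the log2 scale (FDR 0.00064) against IkbkbWT cultures 1 to 3 alone, whose sex makeup also differs from that of IkbkbCA. The 5 markers of border-associated macrophages, summed, stood at 1360 to 1880 CPM in IkbkbWT and 480 to 1030 CPM in IkbkbCA, and their part in the result was not tested. By these counts Ikbke was the most abundant of the kinase genes in 4 of the 5 IkbkbCA cultures. The Ikbkb count need not read the transgene of active IKKβ, so transgene RNA may be missing from this order.

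Loss of Ikbkb came with no such change in Ikbke. It measured 13.7, 12.8, 10.8 and 13.3 CPM in Ikbkb-/- and 12.9, 12.7, 13.8 and 15.8 CPM in Ikbkb+/+. The ranges overlapped, and the log2 fold change was -0.14 (95% interval -0.46 to 0.18), which leaves out changes of the size seen in IkbkbCA. The difference of the IkbkbCA and Ikbkb-/- effects on Ikbke was 1.95 (SE 0.23, FDR 5.4e-05 by the edgeR quasi-likelihood test). Of all 12352 genes, 3.12% were called in that difference, and 2 of the 5 members, Ikbkb and Ikbke, were. Ikbkb is the gene altered by design in Ikbkb-/-, so its call is no finding about the members. The border-associated macrophage markers stood at 1480 to 1810 CPM in Ikbkb+/+ and 415 to 729 CPM in Ikbkb-/-, and their part in the Ikbke values was not tested.

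The tau fibril and IkbkbCA effects on Ikbke differed by 0.58 (95% interval -0.12 to 1.28, FDR 0.308), so a difference in size was not shown. None of the 5 members was called in that difference, beside 9.42% of 12841 genes. At an unadjusted p under 0.05 there was 1 member, Ikbkg (difference -0.50, FDR 0.168). In the difference of the tau fibril and PS19 effects none of the 5 was called, beside 8.07% of 11852 genes, and none had an unadjusted p under 0.05. DESeq2 and limma-voom called no member in these 2 differences.

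In microglia taken from mice, Ikbke was close to the limit of counting. It had 43, 7, 15 and 6 counts in PS19 mice, or 7.71, 2.14, 2.22 and 1.02 CPM. NTG mice had 3, 2, 6 and 3 counts, or 1.65, 0.839, 1.32 and 1.80 CPM. Mouse 1 of PS19 stood apart, and it also had the highest Xist level of these 8 mice (175 CPM against 1.88 to 33.0 CPM). Without it the PS19 mean was 1.79 CPM (SD 0.667, n = 3) against 1.40 CPM (SD 0.425, n = 4) in NTG. The gene was below the filter on low counts, and without a filter its log2 fold change was 1.26 (SE 0.73, FDR 0.702), so a difference was not detectable at this depth.

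Tbk1, which encodes a constitutively expressed kinase of the interferon and autophagy routes, rose with tau fibrils. Fibril cultures measured 24.5, 23.03, 20.7 and 33.7 CPM and vehicle cultures 21.9, 15.5, 8.20 and 11.5 CPM. Cultures 1, 2 and 4 were above all vehicle cultures and culture 3 was within their range. The change was 1.75-fold (log2 0.81, SE 0.26, FDR 0.019 by the edgeR quasi-likelihood test). The call was lost without tau fibril culture 4 (log2 0.66, FDR 0.086), without vehicle culture 3 (0.63, FDR 0.072), with scaling by total counts only (0.66, FDR 0.058) and with the Ddx3y level as a covariate (0.82, FDR 0.089). Ddx3y itself was higher with fibrils (0.45, FDR 0.031). The 95% intervals in IkbkbCA (-0.06 to 0.41), Ikbkb-/- (-0.35 to 0.28) and PS19 (-0.61 to 0.54) all included 0.

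The balance of the IKK complex genes was described by shares of counts within a library, which do not depend on scaling. These are shares of RNA counts and do not measure the protein make-up of the complex. Ikbkb took 57.3%, 61.4%, 56.6% and 51.6% of the counts of Ikbkb, Chuk and Ikbkg with tau fibrils and 47.6%, 45.1%, 43.3% and 45.3% with vehicle. In PS19 it took 51.4%, 61.8%, 49.0% and 59.0%, and in NTG 37.6%, 38.2%, 46.6% and 46.0%. Both pairs of groups were fully apart, with the Ikbkb share higher by 11.4 percentage points with fibrils and by 13.2 points in PS19. The lowest NTG shares, 37.6% and 38.2%, were those of mice 1 and 2, the mice aged 11.18 months. The part of age in this share was not tested. A lower Chuk count also raises the share, and mean Chuk was 36.0 CPM in PS19 against 58.1 CPM in NTG.

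In Ikbkb-/- the share was 31.3%, 25.0%, 24.2% and 27.1%, lower by 20.1 points than in Ikbkb+/+ (mean 47.0%, SD 3.38, n = 4). In IkbkbCA it was 41.9% (SD 2.80, n = 5) against 41.3% (SD 5.06, n = 5) in IkbkbWT. The limits given above for the Ikbkb counts apply here too. The count need not read the IkbkbCA transgene, and in Ikbkb-/- the tags may lie outside the floxed part. Exact two-sided permutation tests gave p = 0.0286, the smallest that 4 against 4 libraries allow, in the first 3 of these comparisons, and p = 0.802 in IkbkbCA. Adjusted over the 8 share tests the values were 0.0571 in each of the 3, so none passed 0.05. At these group sizes no share test could pass this adjustment on its own, so that outcome is limited by the number of libraries.

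The balance of Ikbke and Tbk1, the genes of the related kinases IKKε and TBK1, was described in the same way. Ikbke took 69.9%, 70.4%, 74.2%, 68.8% and 70.6% of the counts of Ikbke and Tbk1 in IkbkbCA, and 43.4%, 47.1%, 47.4%, 47.4% and 37.5% in IkbkbWT. The groups were fully apart, and the mean was 26.3 points higher (exact permutation p = 0.00794, the smallest that 5 against 5 allow, adjusted 0.0571). With fibrils the mean share was 52.9% (SD 12.0, n = 4) against 29.8% (SD 11.0, n = 4), and the ranges overlapped (exact permutation p = 0.0571, adjusted 0.0914). In Ikbkb-/- it was 38.3% against 39.4%, and in PS19 12.8% against 5.63%, with exact permutation p of 0.686 and 0.286. Without PS19 mouse 1 the difference in PS19 fell from 7.21 to 2.24 points.

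**Figure D3:**
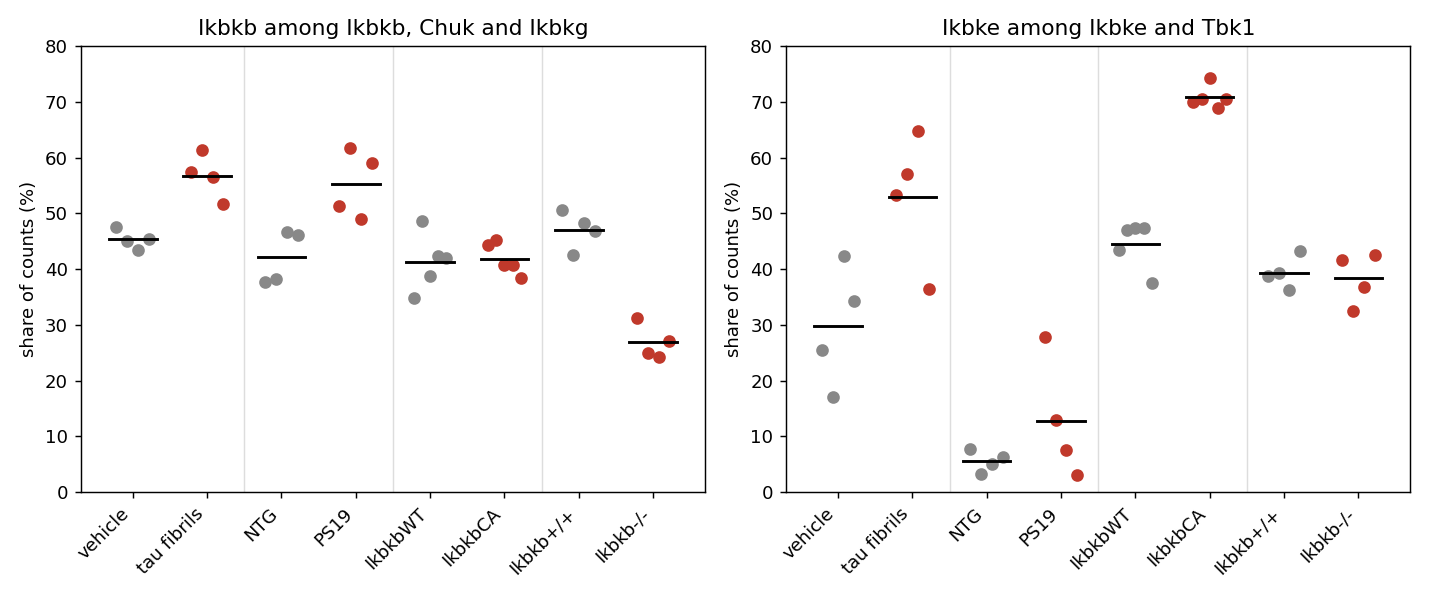
Share of counts in percent taken by Ikbkb within the IKK complex genes (left) and by Ikbke within Ikbke and Tbk1 (right), with 1 point per library, grey for control groups and red for treated or altered ones, and black bars for group means. The IkbkbCA cultures sit between 68.8% and 74.2% for Ikbke, all above the IkbkbWT cultures.

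The genes around these kinases were read from 5 lists of 59 genes in all. With tau fibrils 29 of the 56 tested were called, or 51.8% beside 29.9% of all genes, with 27 higher and 2 lower and a median log2 fold change of 0.60 beside -0.01 over all genes. In IkbkbCA 22 of 59 were called (37.3% beside 14.5%), 20 higher and 2 lower (median 0.23 beside -0.05), and against IkbkbWT cultures 1 to 3 alone 18 were. In Ikbkb-/- 10 of 58 were called, a share of 17.2% near the 14.6% of all genes, 7 higher and 3 lower (median 0.07 beside 0), and with the Ddx3y level as a covariate 6 were, 2 higher and 4 lower. In PS19 the edgeR test called 0 of 58 and limma-voom 0. In that comparison 5 of 58 had an unadjusted p under 0.05, and DESeq2 called 1, Irf7.

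**Figure D4:**
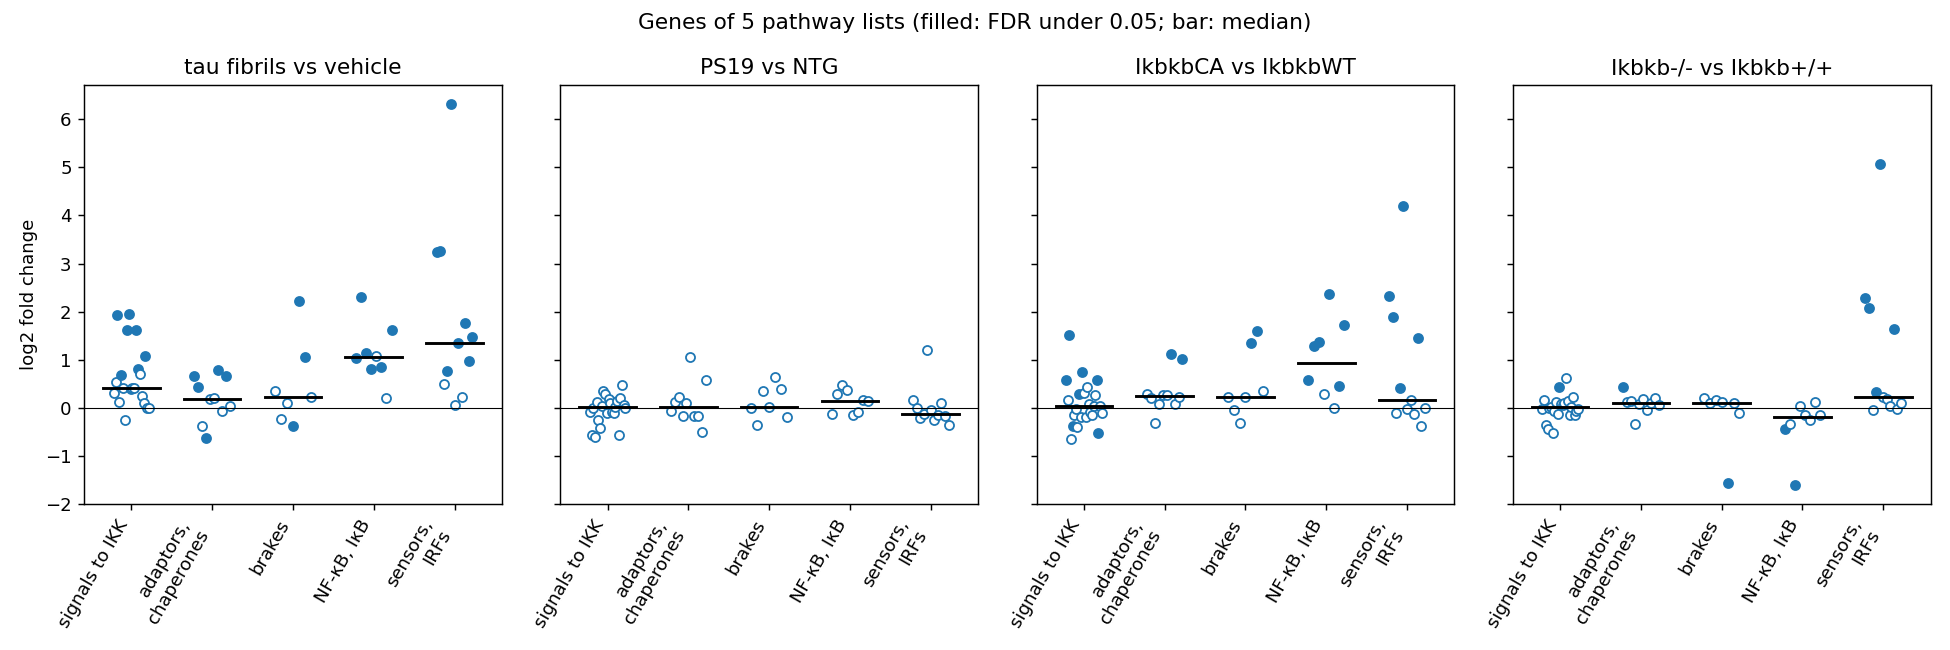
Log2 fold change of each gene of the 5 pathway lists in the 4 comparisons, with filled points for an FDR under 0.05 and bars for list medians. The NF-κB and IκB list has its median at 1.06 with tau fibrils and 0.93 in IkbkbCA, and the highest point of the sensor list is Irf7 in all 4 panels.

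Upstream of IKK, the 23 signalling genes had 7 of 20 called with tau fibrils, all higher, a share of 35.0% near the 29.9% of all genes. The largest were Myd88, the adaptor of Toll-like and interleukin-1 receptors (log2 fold change 1.94, SE 0.19), and Birc3, a ubiquitin ligase at TNF receptors (1.94, SE 0.27). In IkbkbCA 7 of 23 were called (30.4% beside 14.5%). Birc3 (1.51, SE 0.12) and Myd88 (0.74, SE 0.10) were highest, and Traf6 (-0.52, SE 0.11) and Irak1 (-0.39, SE 0.11), which relay Toll-like receptor signals, were lower. In Ikbkb-/- 1 of 22 was called (4.55% beside 14.6%), Myd88 (0.44, SE 0.09). With the Ddx3y level as a covariate Myd88 was at 0.26 (FDR 0.733) and Birc3 at -2.04 (FDR 0.0396), with the limit given above.

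Among the 10 adaptors and chaperones, 5 were called with tau fibrils (50% beside 29.9%). Tank (0.79, SE 0.23) and Tbkbp1 (0.66, SE 0.25), which bind TBK1 and IKKε, rose, and Hsp90aa1, a chaperone of IKK (-0.63, SE 0.17), fell. In IkbkbCA Tank (1.11, SE 0.10) and Traf3 (1.02, SE 0.11) were called (20.0% beside 14.5%), and in Ikbkb-/- 1 of 10 (10.0% beside 14.6%), the TBK1 adaptor gene Azi2 (0.44, SE 0.09). With the Ddx3y level as a covariate Azi2 was at 0.54 (FDR 0.404) and Hsp90aa1 at -1.26 (FDR 0.0248), with the limit given above.

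Of the 7 brakes on IKK, 3 were called with tau fibrils (42.9% beside 29.9%), 2 in IkbkbCA (28.6% beside 14.5%) and 1 in Ikbkb-/- (14.3% beside 14.6%). Tnfaip3, which encodes the ubiquitin-editing enzyme A20, and its partner Tnip1 rose with tau fibrils (2.22, SE 0.42, and 1.05, SE 0.15) and in IkbkbCA (1.35, SE 0.24, and 1.599, SE 0.15). Rnf11 fell with fibrils (-0.38, SE 0.14). In Ikbkb-/- Tnfaip3 fell by 1.56 on the log2 scale (SE 0.27), from 38.8, 24.6, 22.8 and 16.3 CPM in Ikbkb+/+ to 9.84, 12.4, 6.22 and 5.64 CPM. The 5 granulocyte markers, summed, stood at 394, 91.2, 37.7 and 7.81 CPM in the same controls and 8.01 to 12.0 CPM in Ikbkb-/-, and the part of these cells was not tested. With the Ddx3y level as a covariate the value was -3.36.

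The 8 IKK substrates, NF-κB subunits and IκB genes had 6 called with tau fibrils (75.0% beside 29.9%) and 6 in IkbkbCA (75.0% beside 14.5%), all higher. Nfkb2, the precursor of the p52 subunit, rose by 2.30 (SE 0.21) with fibrils. Nfkbie, an IκB gene, rose by 2.37 (SE 0.22) in IkbkbCA, and Relb by 1.62 (SE 0.24) and 1.72 (SE 0.10). In Ikbkb-/- 2 of 8 were called (25.0% beside 14.6%), both lower. Nfkbia, which encodes IκBα, stood at 248, 263, 259 and 283 CPM in Ikbkb-/- and at 1440, 769, 644 and 356 CPM in Ikbkb+/+ (log2 fold change -1.604, SE 0.27). In the same controls Cx3cr1 stood at 2810, 2510, 2200 and 1820 CPM and Ddx3y at 68.2, 61.3, 38.2 and 35.0 CPM. These and the granulocyte markers given above fell in the same order as Nfkbia, and their part in the result was not tested. Nfkb1 had a log2 fold change of -0.45 (SE 0.10). With the Ddx3y level as a covariate Nfkbia was at -3.96 and Nfkb1 was not called (-0.40, FDR 0.582).

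Sensors and substrates of TBK1 and IKKε were called in 8 of 11 with tau fibrils (72.7% beside 29.9%), 5 of 11 in IkbkbCA (45.5% beside 14.5%) and 5 of 11 in Ikbkb-/- (45.5% beside 14.6%), all higher. Irf7, an interferon regulatory factor that these kinases activate, was highest in each. It stood at 292 to 389 CPM with fibrils against 3.73 to 4.99 CPM with vehicle (log2 fold change 6.32, SE 0.19). In IkbkbCA it ran from 73.4 CPM in culture 3, the culture with the highest Ikbke, to 344 CPM, against 8.98 to 19.0 CPM in IkbkbWT (4.20, SE 0.38). In Ikbkb-/- it stood at 277 to 503 CPM against 9.67 to 14.3 CPM (5.07, SE 0.20).

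Ddx58, the RNA sensor RIG-I, also rose with fibrils, in IkbkbCA and in Ikbkb-/- (3.23, 2.33 and 2.28), as did the RNA sensor gene Ifih1 (3.25, 1.89 and 2.08). The IkbkbCA and Ikbkb-/- effects were not shown to differ for Irf7 (difference -0.84, 95% interval -1.86 to 0.17) or Ddx58 (0.06, -0.41 to 0.53), whereas for Nfkbia they differed by 3.004 (SE 0.37, FDR 7.3e-05 by the edgeR quasi-likelihood test). Both genotypes carried Cre and both control groups lacked it, so genotype and Cre cannot be told apart. In Ikbkb-/- 5 of the 11 sensor genes were called higher, and the RNA of neither Ikbke nor Tbk1 was called. Kinase activity was not measured, and the part of IKKε and TBK1 in these values was not tested. With the Ddx3y level as a covariate 2 of the 11, Irf7 and Ddx58, were called, with the limit given above.

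Profiles most like each kinase gene were sought among 13722 genes by Pearson's r of log2 CPM over the 34 libraries, after the mean of each experiment was taken away. These libraries share depth and treatment between genes, so the values are descriptions. Genes picked in this way tend to share the changes of the kinase gene, so shared rises and falls follow largely from the choice. For Ikbke they were Clec12a, an inhibitory lectin receptor gene (r = 0.92), Ehd1, a gene of endosome recycling (0.90), and Tnfaip2 (0.90). Like Ikbke, all 3 rose with tau fibrils (log2 2.71, 2.13 and 1.501) and in IkbkbCA (1.56, 0.78 and 1.59), and Ehd1 fell in Ikbkb-/- (-0.25, FDR 0.042). For Ikbkb the closest were Herpud1 (0.76), Dusp2 (0.75) and Pecam1 (0.73). Herpud1, a gene of the endoplasmic reticulum stress response, rose with fibrils (0.98) and fell in Ikbkb-/- (-0.89). For Tbk1 they were Srd5a3 (0.86), Fbxo38 (0.81) and Skap2 (0.78), for Chuk Eif4g3 (0.80), Slc35f5 (0.80) and Itprid2 (0.77), and for Ikbkg Eef1b2 (0.69), Sdhaf4 (0.65) and Esd (0.63).

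**Figure D5:**
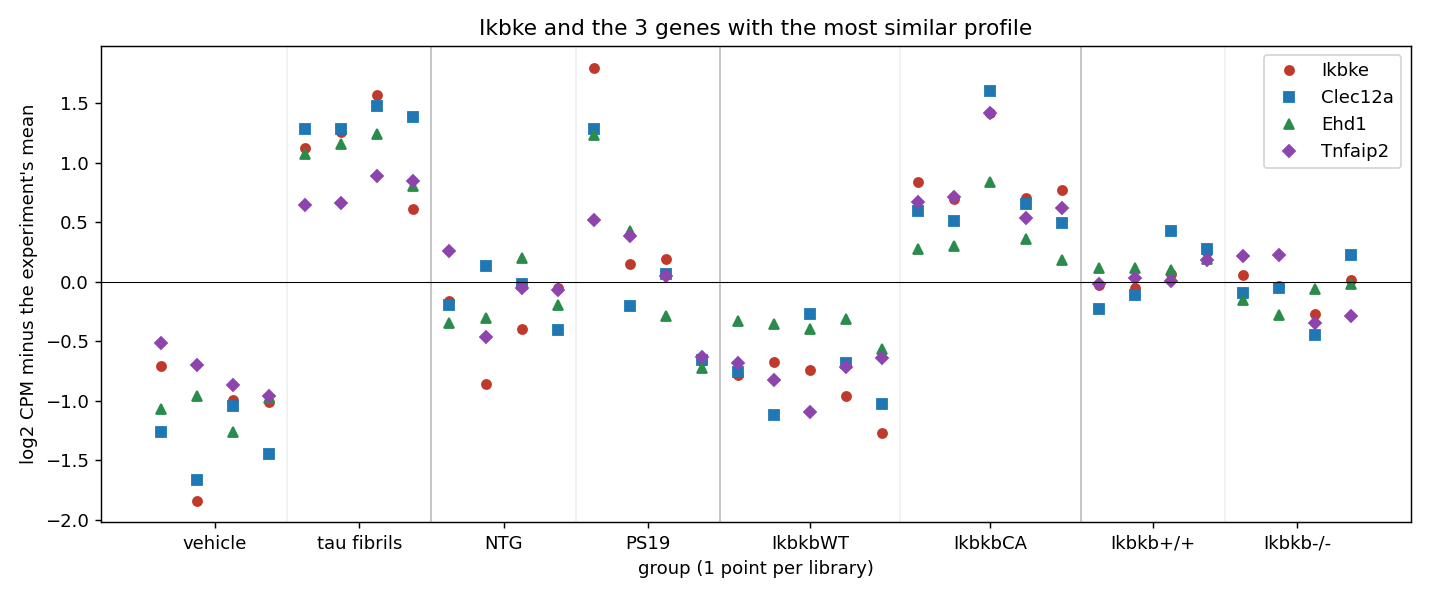
Log2 CPM minus the mean of the experiment for Ikbke and its 3 most similar genes, with 1 point per gene and library in 8 groups and grey lines between groups. The 4 genes are high together in tau fibril and IkbkbCA libraries and in PS19 mouse 1.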

How the data were processed

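The authors made QuantSeq 3′ mRNA-Seq libraries and deposited raw counts of reads per Ensembl gene (47643 genes) for 34 microglia libraries. The submitters' notes name STAR, RSEM, edgeR, limma and GRCm38, and the paper a Lexogen QuantSeq pipeline. Totals of 1672052 to 8349128 counts per library set the precision. Reads outside genes (12.4% to 38.3%) and ambiguous reads (0.409% to 0.708%) were left out. The 24 cortex samples were not analysed here. GENCODE M21 gave symbols and coordinates for 47224 identifiers.

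Groups came from the labels. In R 4.3.3 with edgeR 4.0.16, each comparison was fitted on its 2 groups alone (TMM, filterByExpr with a minimum count of 10 and a minimum total of 15, quasi-likelihood test, Benjamini-Hochberg FDR under 0.05 over all genes tested), and differences of effects on their 4 groups. The SE is the log2 fold change divided by the root of F. CPM levels came from a TMM over the 34 libraries. Shares were tested by exact two-sided permutation over libraries. No 2 libraries of a group had identical counts (56 pairs). The fits were tested on simulated counts.

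Named were the 5 members, at most the 2 highest and 2 lowest called genes of a list, the 3 most similar profiles (log2 CPM, prior count 2), Cx3cr1, Xist and Ddx3y. Ddx58 with tau fibrils, Ifih1 in the genotypes, Irf7 in PS19, the differences of effects on list genes, Birc3 and Hsp90aa1 in Ikbkb-/- and G6pdx were chosen after their values were seen. Members and lists were chosen with earlier results of these data known. Alternatives were RLE, total counts, DESeq2 1.42.0, limma-voom (3.58.1), no filter, a fit of all 34 libraries, covariates (age, reads outside genes, Ddx3y), a log2 ratio for the shares and leaving out each library. IkbkbWT cultures 1 to 3 alone were added after seeing the data.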

Additional observations from a re-analysis of the deposited data

Results flagged for a closer look

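In groups of 4 or 5 libraries, 3 of 56 sets of values had a library whose gap to its neighbour was large for the range, and chance marks about 1 in 20. Ikbke stood at 90.5 CPM in IkbkbCA culture 3 against 54.6 to 60.3 CPM in the other 4. Ikbkg stood at 20.8 CPM in Ikbkb-/- culture 1 against 29.3 to 30.9 CPM in the other 3. Tbk1 stood at 26.6 CPM in Ikbkb-/- culture 2 against 18.02 to 19.1 CPM in the other 3.

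Effects of the 2 genotypes differed for 2 genes in a fit of both experiments. The difference of the IkbkbCA and Ikbkb-/- effects was 1.38 for Ikbkb (FDR 8.0e-05 by the edgeR quasi-likelihood test), the gene that the second genotype removes in part, and 1.95 for Ikbke (FDR 5.4e-05).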

How the results depend on the processing

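Of 394 alternative values of the members' log2 fold changes, 363 kept their direction and side of the threshold, 5 lost the call and 26 changed sign, and no value that changed sign was called. Calls of Ikbke with tau fibrils and in IkbkbCA were kept under every alternative run. The causes were not tested. Tbk1 with tau fibrils lost its call with total counts only (0.66) and with Ddx3y as a covariate (0.82), as Ikbkb in Ikbkb-/- did with Ddx3y (-1.06). Without single libraries Tbk1 with fibrils ranged from 0.63 to 1.04, Chuk with fibrils from -0.19 to 0.19, in IkbkbCA from -0.0849 to 0.11 and in Ikbkb-/- from -0.16 to 0.12, Ikbkg in PS19 from -0.23 to 0.0252, and Tbk1 from -0.24 to 0.16 in PS19 and from -0.20 to 0.0387 in Ikbkb-/-. Signs also changed for Chuk with fibrils (total counts only -0.14, Ddx3y -0.16), Chuk in Ikbkb-/- (total counts only -0.0065, limma-voom -0.0031, Ddx3y -0.25), Ikbke in Ikbkb-/- (Ddx3y 0.19) and Tbk1 in PS19 (total counts only 0.0085, no filter 0.015, all 34 libraries 0.0024). In the difference of tau fibril and IkbkbCA effects Chuk was 0.057 without a filter and 0.042 with all 34 libraries, and in that of tau fibril and PS19 effects Ikbkg was 0.0139 and 0.0171.

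Genes called in PS19 (8) were 98 with DESeq2, 4 with limma-voom, 166 without a filter, 375 with all 34 libraries and 0 with age as a covariate (552 at an unadjusted p under 0.05), and 4 to 54 without single libraries. The count of 54 came without PS19 mouse 2, and the fit with age in effect has NTG mice 3 and 4 alone as controls. In IkbkbCA 1047 were called against IkbkbWT cultures 1 to 3. In Ikbkb-/- 515 were called with all 34 libraries and 305 with Ddx3y. With all 34 libraries the differences had 225 (IkbkbCA and Ikbkb-/-) and 1541 (tau fibril and PS19) calls. The share tests kept direction and side with a log2 ratio. Ikbke in mouse microglia, at 2 to 43 counts, is limited by depth. No paired analysis was possible because the labels give no replicate numbers that groups share.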
